A study of Mus musculus with 30 samples.

Results

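Intracellular restriction factors are proteins that block viruses inside the cell, and 10 of their genes were followed here in mouse tumor cells: Mx1, Mx2, Rsad2, Bst2, Samhd1, Apobec3, Isg20, Eif2ak2, Adar and Pnpt1. They were taken from a named list, which was chosen with earlier results of these data known, and all 10 are given whatever their values. All 10 were found among the 49315 genes counted, and all 10 were among the 21138 genes tested. RNA was sequenced from 2 C57BL/6 mouse tumor lines in culture, with 3 libraries in each of 8 groups. B16F10 (labelled B16) is a melanoma line, and 6694c2 (labelled C2) is a pancreatic ductal adenocarcinoma (PDAC) line from female mice whose alleles include p53+/floxed, Pdx-cre and YFP-floxed, so Cre was driven by the pancreatic Pdx promoter. Each line was held for 24 h in vehicle, in IFNγ at 100 ng/mL, in IFNβ at 1000 U/mL or in STING agonist at 225 μg/mL. Each line stands for 1 tumor, and the sources do not say whether the 3 libraries of a group came from separate cultures. The p-values thus reflect only the spread between these libraries, which the fit shares over genes.

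IFNβ is a type I interferon. Its receptor activates a complex with STAT2 and IRF9, which binds interferon-stimulated response elements (ISRE) in promoters. IFNγ uses another receptor and acts mainly through gamma-activated sites (GAS). STING is the adaptor of cytosolic DNA sensing, and its activation leads through TBK1 and IRF3 to type I interferon. Restriction factors are among the best known targets of these pathways, and most cells hold a low level of them before any interferon is seen.

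Levels are given as CPM, the reads of a gene per 1000000 reads on genes tested, with library sizes scaled by TMM over all 24 libraries. For levels of different genes set side by side, CPM was divided by the counted exon length, as CPM per kb. Between 15543131 and 32266795 reads per library fell on genes. A gene was called higher or lower when the quasi-likelihood test of edgeR, with Benjamini-Hochberg adjustment over all 21138 genes, gave an adjusted p-value under 0.05, quoted below as the edgeR adjusted p, and errors beside log2 fold changes are standard errors. In bulk RNA, fewer cells with a transcript and less of it per cell cannot be told apart. The lines matched their labels, with 7 melanocyte markers summing to between 14676 and 18545 CPM in B16F10 libraries and 7 epithelial markers summing to between 12790 and 15079 CPM in 6694c2 libraries. Each line also held a trace of the other line's markers. Melanocyte markers in 6694c2 libraries stood at 0.112% to 0.465% of their B16F10 vehicle level by group, and epithelial markers in B16F10 libraries stood at 0.122% to 0.815% of their 6694c2 vehicle level, with the highest share under STING agonist. Leukocyte, B cell, T cell and fibroblast markers summed to at most 30.1 CPM in any library. The values of these traces are given beside some of the low-level results they touch, and for 6694c2 vehicle levels where the untreated lines are compared.

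Promoter windows of 8 of the 10 genes were in the RefSeq table for GRCm38.p6, 13 windows in all, with none for Mx1 or Mx2. Each window covers 250 bases before and 50 after an annotated start site. Both strands were searched for the ISRE core GAAANNGAA and for the GAS motif TTCNNNGAA. Of 32851 windows of the same length over all genes, 8.56% held the ISRE core and 8.30% held the GAS motif. Among the 8 genes, 5 held an ISRE core and 5 a GAS motif in at least 1 window. Counted by window, as those shares are, 5 of the 13 windows held an ISRE core and 5 a GAS motif. Positions are counted from the start site, which is position 0. Rsad2, Bst2, Samhd1 and Adar are printed, since they show an ISRE core alone, both motifs in contact, a GAS motif alone, and both motifs at an internal start site. Capitals mark bases that match either motif, and each run is read on the strand of its gene, which is the minus strand for Rsad2, Bst2 and Samhd1 and the plus strand for Adar.
Rsad2, chr12:26456403-26456702: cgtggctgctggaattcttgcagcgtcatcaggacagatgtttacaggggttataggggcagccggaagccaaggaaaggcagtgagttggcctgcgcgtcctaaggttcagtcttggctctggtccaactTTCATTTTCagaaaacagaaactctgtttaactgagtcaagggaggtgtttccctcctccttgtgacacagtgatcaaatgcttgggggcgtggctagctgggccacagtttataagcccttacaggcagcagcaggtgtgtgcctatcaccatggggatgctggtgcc
Bst2, chr8:71537423-71537722: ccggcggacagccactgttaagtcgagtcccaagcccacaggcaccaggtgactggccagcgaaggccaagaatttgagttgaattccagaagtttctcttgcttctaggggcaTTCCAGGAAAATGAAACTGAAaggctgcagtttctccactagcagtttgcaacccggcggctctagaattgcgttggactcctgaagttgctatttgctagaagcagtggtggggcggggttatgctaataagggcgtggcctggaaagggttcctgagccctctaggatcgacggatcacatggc
Samhd1, chr2:157135047-157135346: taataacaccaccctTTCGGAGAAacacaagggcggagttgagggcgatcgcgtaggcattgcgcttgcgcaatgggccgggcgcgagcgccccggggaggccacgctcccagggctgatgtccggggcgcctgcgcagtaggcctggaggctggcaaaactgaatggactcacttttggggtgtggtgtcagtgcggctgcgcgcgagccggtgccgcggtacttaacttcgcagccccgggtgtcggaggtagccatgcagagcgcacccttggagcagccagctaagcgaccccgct
Adar, chr3:89730468-89730767: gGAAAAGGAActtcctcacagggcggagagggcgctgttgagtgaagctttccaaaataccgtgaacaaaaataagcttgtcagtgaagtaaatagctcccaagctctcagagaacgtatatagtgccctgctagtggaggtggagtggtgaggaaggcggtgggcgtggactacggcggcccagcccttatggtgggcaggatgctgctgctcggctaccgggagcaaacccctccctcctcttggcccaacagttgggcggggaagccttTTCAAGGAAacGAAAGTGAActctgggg

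The Rsad2 window held 1 ISRE core at -119, read on the opposite strand. In Bst2, a GAS motif at -136 ran into 2 overlapping ISRE cores at -130 and -124, so that the capitals form 1 block. The Samhd1 window held a GAS motif at -235 and no ISRE core. At the third Adar start site, which lies inside the gene, a GAS motif stood at 22 and an ISRE core at 33, with a further ISRE core at -249, and the other Adar windows held neither. Among windows not printed, Eif2ak2 held ISRE cores at 18 and 24 and a GAS motif at -178, Apobec3 an ISRE core at -139 of its first window, and Isg20 a GAS motif at -73 of its first window. Neither set of letters was found in the Pnpt1 window. A match is a description of the sequence and no binding was measured.

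Interferon raised nearly the whole group in both lines, and STING agonist raised most of it in B16F10 cells and moved none of it past the threshold in 6694c2 cells. With IFNβ, 9 of 10 genes were higher in B16F10 cells, where 12.7% of all genes tested were called higher and 11.2% lower. All 10 were higher in 6694c2 cells, against 10.4% of all genes called higher and 7.86% lower. With IFNγ, 9 of 10 were higher in B16F10 cells (all genes: 12% higher, 10.8% lower) and 8 of 10 in 6694c2 cells (all genes: 7.89% higher, 5.66% lower). STING agonist raised 7 of 10 in B16F10 cells, where 1.93% of all genes were called higher and 1.53% lower. In 6694c2 cells 0 of 10 were called with STING agonist, where 0.203% of all genes were called higher and 0.156% lower. No gene of the group was called lower than vehicle in any of the 6 comparisons. Over the 10 genes the median log2 fold change with IFNβ was 2.04 in B16F10 and 2.90 in 6694c2 cells, with IFNγ 2.14 and 1.77, and with STING agonist 0.82 and 0.082, where the median over all genes tested lay between 0 and 0.0194.

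**Figure D1:**
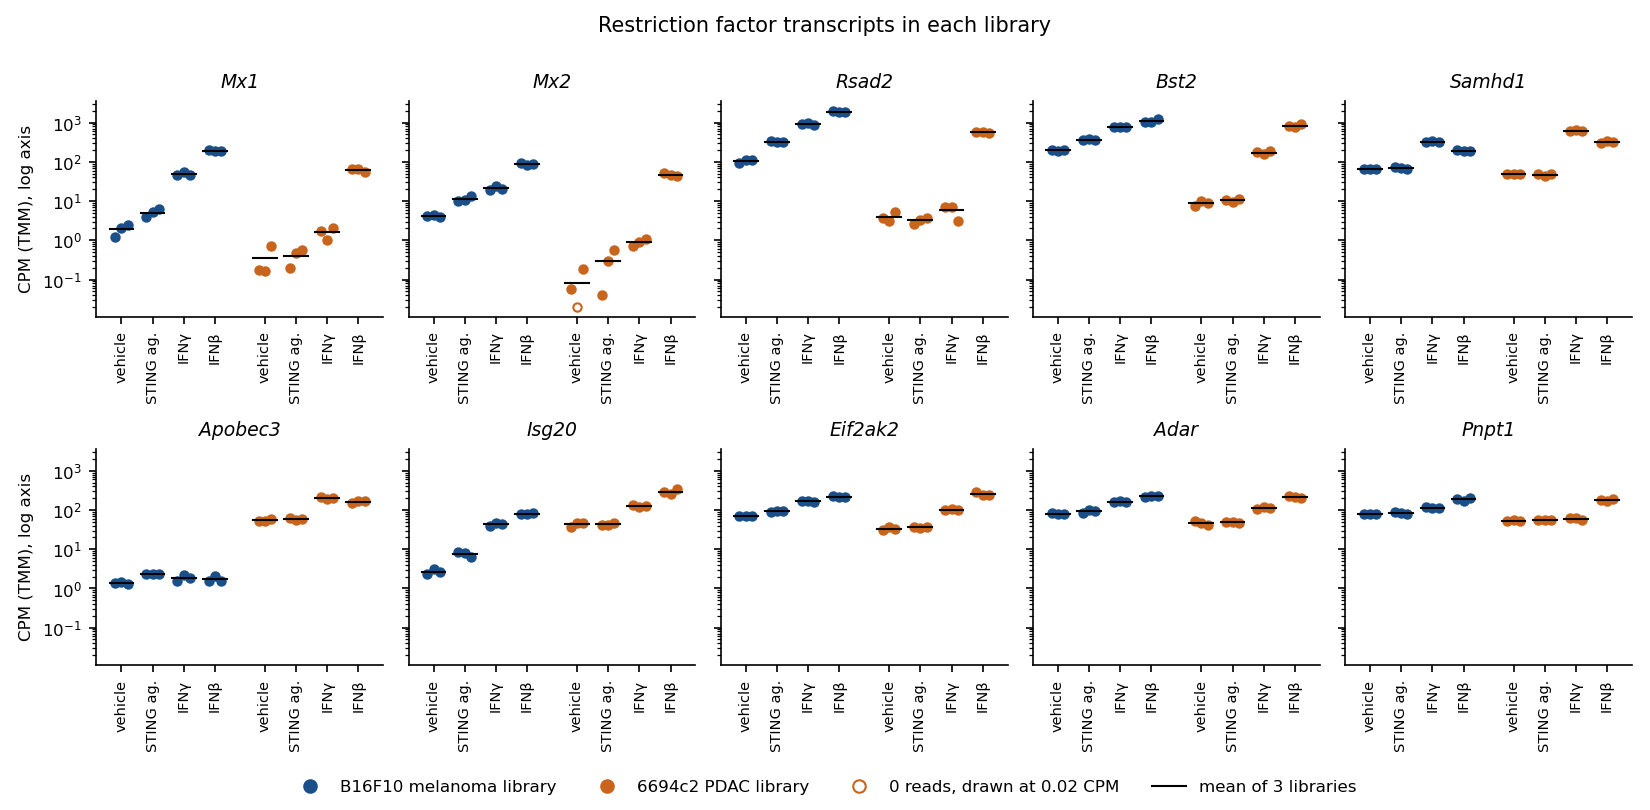
Level of each restriction factor in every library, in CPM after TMM normalization on a log axis, with 1 panel per gene, blue points for B16F10 and orange points for 6694c2 libraries, grouped by treatment, and a black line at the mean of 3 libraries. Rsad2 reached a mean of 562 CPM with IFNβ in 6694c2 cells against 5.85 CPM with IFNγ, while the B16F10 group means of Apobec3 stayed between 1.36 and 2.32 CPM.

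Mx1 (chr16:97447035-97462907, minus strand) and Mx2 (chr16:97535308-97560900, plus strand) encode dynamin-like GTPases that assemble around viral nucleoprotein. RefSeq lists both as transcribed pseudogenes on its C57BL/6J assembly, and GENCODE M21 lists Mx1 as protein coding and Mx2 as a polymorphic pseudogene, so the counts show transcripts and not protein. In B16F10 cells, Mx1 stood at 1.24, 2.09 and 2.50 CPM with vehicle and at 3.82, 5.29 and 6.10 CPM with STING agonist. It rose to 47.6, 54.6 and 45.0 CPM with IFNγ and to 205, 189.7 and 189 CPM with IFNβ. The 4 groups did not overlap, and Mx1 had the largest IFNβ fold change of the 10 genes in this line, at 98.2-fold (log2 6.62 ± 0.10, edgeR adjusted p = 1.37e-215). With IFNγ the log2 fold change was 4.62 ± 0.11 (edgeR adjusted p = 2.6e-151) and with STING agonist 1.36 ± 0.15 (edgeR adjusted p = 4.96e-15). Mx2 kept the same order in B16F10 cells, with means of 4.10 ± 0.213 CPM in vehicle, 11.4 ± 1.99 CPM in STING agonist, 21.5 ± 2.37 CPM in IFNγ and 87.7 ± 6.08 CPM in IFNβ (SD, n = 3).

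In 6694c2 cells both Mx genes were close to silent without IFNβ. Mx1 had 3, 3 and 12 reads in the vehicle libraries and 2023, 1413 and 1467 reads with IFNβ. Mx2 had 1, 0 and 3 reads in the vehicle libraries and 1579, 996 and 1185 reads with IFNβ. The IFNβ libraries stood far above every other 6694c2 library for both genes, at 61.8 ± 6.89 CPM for Mx1 and 47.1 ± 4.78 CPM for Mx2. The fitted log2 fold changes were 7.47 ± 0.22 for Mx1 and 9.18 ± 0.28 for Mx2 (edgeR adjusted p = 2.17e-29 and 1.63e-28). Their size rests on few vehicle reads, most of them in vehicle replicate 3. Without that library they were 8.49 and 10.47. Both genes also rose with IFNγ, to 1.72, 1.04 and 2.04 CPM for Mx1 (log2 2.26 ± 0.37, edgeR adjusted p = 9.13e-06) and to 0.722, 0.920 and 1.05 CPM for Mx2 (log2 3.49 ± 0.59, edgeR adjusted p = 1.67e-05). Without vehicle replicate 3 these changes were 3.27 and 4.79. The IFNγ libraries of 6694c2 held melanocyte markers at 0.451% of their B16F10 level, and that share of the B16F10 IFNβ level would be 0.878 CPM for Mx1 and 0.396 CPM for Mx2, beside rises of 1.24 and 0.818 CPM. Of the B16F10 IFNγ level it would be 0.221 and 0.0971 CPM. The part of such traces in these low levels was not tested.

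Rsad2 (chr12:26442753-26456452, minus strand) encodes viperin, a radical SAM enzyme whose product stops viral RNA chains. It was the member with the widest gap between the interferons in 6694c2 cells. There it stood at 3.73, 3.07 and 5.12 CPM with vehicle, at 7.17, 7.17 and 3.20 CPM with IFNγ and at 574, 569 and 542 CPM with IFNβ. The IFNγ libraries overlapped with vehicle and the IFNβ libraries lay far above both. IFNβ raised Rsad2 145-fold (log2 7.18 ± 0.15, edgeR adjusted p = 1.76e-34). The IFNγ change had a log2 value of 0.50 ± 0.19 and was not called (edgeR adjusted p = 0.0893, 95% interval 0.11 to 0.89). That call depended on single libraries. Without IFNγ replicate 3, the one at 3.20 CPM, the log2 change was 0.87 with an adjusted p of 1.88e-05 in edgeR, and without vehicle replicate 3 it was 0.72 with an adjusted p of 0.0222 in edgeR. Melanocyte markers in these 3 IFNγ libraries stood at 0.461%, 0.699% and 0.194% of their B16F10 level, in order of replicate. Replicate 3 held the lowest Rsad2 reading of them but the highest of Mx1 and Mx2, at 2.04 and 1.05 CPM. A share of 0.451% of the B16F10 IFNγ level of Rsad2 would be 4.20 CPM. Of its B16F10 vehicle and IFNβ levels that share would be 0.488 and 8.66 CPM, beside a 6694c2 IFNγ mean of 5.85 CPM. Whether such traces had a part in the Rsad2 change was not tested.

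In B16F10 cells Rsad2 was already well expressed, at 95.2, 115 and 115 CPM with vehicle. STING agonist took it to 330.4, 327 and 318 CPM, IFNγ to 932, 971 and 886 CPM and IFNβ to 2035, 1878 and 1845 CPM. The 4 groups were separated with no overlap. Rsad2 rose with STING agonist in this line by a log2 fold change of 1.58 ± 0.053 (edgeR adjusted p = 1.88e-99), against 3.10 ± 0.056 with IFNγ and 4.16 ± 0.058 with IFNβ (edgeR adjusted p = 3.49e-190 and 9.26e-230).

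Bst2 (chr8:71534255-71537456, minus strand) encodes tetherin, a membrane protein that holds budding virions on the cell surface. Its level per length was the highest of the 10 genes in B16F10 vehicle libraries, at 220.1 CPM per kb, and it was 9.78 CPM per kb in 6694c2 vehicle libraries. By library, Bst2 stood at 7.64, 9.88 and 8.96 CPM in 6694c2 cells with vehicle, 179.9, 154 and 184 CPM with IFNγ and 800.0, 782 and 929.5 CPM with IFNβ. Both interferons lifted it far out of the vehicle range, 97.0-fold with IFNβ and 19.8-fold with IFNγ (log2 6.60 ± 0.10 and 4.30 ± 0.10, edgeR adjusted p = 5.02e-39 and 4.46e-33). In B16F10 cells it went from 201, 191 and 204 CPM with vehicle to 360.2, 381 and 356 CPM with STING agonist, 785, 766 and 785 CPM with IFNγ and 1017, 1048 and 1209 CPM with IFNβ. No groups overlapped, and the rise over vehicle was 5.52-fold with IFNβ and 1.83-fold with STING agonist (edgeR adjusted p = 1.53e-159 and 7.39e-45).

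Samhd1, Apobec3 and Isg20 encode enzymes that act on nucleotides or nucleic acids. Samhd1 (chr2:157097533-157135265, minus strand) degrades deoxynucleoside triphosphates and so starves reverse transcription. It stood at 66.3, 66.0 and 65.2 CPM in B16F10 vehicle libraries, at 199, 192 and 188 CPM with IFNβ and at 327, 334 and 321 CPM with IFNγ. In 6694c2 cells it stood at 50.4, 50.1 and 48.0 CPM with vehicle, 311, 336 and 314 CPM with IFNβ and 623, 643 and 607 CPM with IFNγ. Samhd1 was thus highest with IFNγ in both lines, and the vehicle, IFNβ and IFNγ groups did not overlap. The log2 fold change with IFNγ was 2.31 ± 0.059 in B16F10 and 3.67 ± 0.072 in 6694c2 cells (edgeR adjusted p = 3.01e-138 and 3.2e-35). With STING agonist it was 0.086 ± 0.060 and -0.055 ± 0.069 (edgeR adjusted p = 0.599 and 0.893), so no change was called.

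Apobec3 (chr15:79891659-79915906, plus strand) deaminates cytidines in the DNA copies of retroviruses. Before treatment it was far higher in 6694c2 than in B16F10 cells. B16F10 libraries held 1.34, 1.44 and 1.29 CPM with vehicle, 1.58, 2.25 and 1.85 CPM with IFNγ and 1.57, 2.07 and 1.54 CPM with IFNβ. These are 28, 36 and 33 reads in the vehicle libraries, and no treatment changed the gene by the test in this line, with edgeR adjusted p-values of 0.407 for IFNβ, 0.246 for IFNγ and 0.109 for STING agonist. In 6694c2 cells it stood at 52.3, 53.3 and 58.0 CPM with vehicle, 152, 169 and 173 CPM with IFNβ and 218, 192 and 199 CPM with IFNγ. Both interferons raised it there without overlap, by 1.63 ± 0.074 and 1.91 ± 0.074 on the log2 scale (edgeR adjusted p = 5.14e-22 and 2e-24). The B16F10 STING agonist libraries held 2.39, 2.30 and 2.28 CPM, above every vehicle library, with a log2 fold change of 0.76 ± 0.27. This change passed when all 24 libraries (edgeR adjusted p = 0.0116) or only the 6 libraries compared (edgeR adjusted p = 0.0499) entered the fit. Epithelial markers in these libraries stood at 0.815% of their 6694c2 level, a share that would bring between 0.445 and 1.65 CPM of Apobec3 at its levels in 6694c2 groups, beside a rise of 0.965 CPM, and its part in the rise was not tested. Apobec3 shares 100 exon bases with Cbx7 on the other strand, and the strand setting of the counts is not given in the sources used here. Reads of Cbx7 came to 4778 over all libraries against 34007 for Apobec3, whose B16F10 groups held only 97 to 136 reads each. The part of reads from Cbx7 in these low counts was not tested.

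Isg20 (chr7:78913424-78920396, plus strand) encodes an exonuclease that degrades RNA. B16F10 cells held 2.39, 3.05 and 2.58 CPM with vehicle, 39.9, 45.5 and 43.9 CPM with IFNγ and 76.9, 78.5 and 86.2 CPM with IFNβ. 6694c2 cells held 36.1, 46.3 and 47.4 CPM with vehicle, 137, 122 and 123 CPM with IFNγ and 279.8, 259 and 336 CPM with IFNβ. The gene thus began low in B16F10 and higher in 6694c2 cells and rose with both interferons in both, without overlap. The folds with IFNβ were 30.1 and 6.91 (log2 4.91 ± 0.10 and 2.79 ± 0.091, edgeR adjusted p = 2.11e-163 and 2.75e-27). With STING agonist Isg20 reached 8.67, 8.19 and 6.21 CPM in B16F10 cells (log2 1.51 ± 0.14, edgeR adjusted p = 1.55e-22). The epithelial trace of 0.815% would bring between 0.353 and 2.38 CPM of Isg20 at its levels in 6694c2 groups, beside a rise of 5.01 CPM.

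Eif2ak2, Adar and Pnpt1 encode proteins that meet double-stranded RNA. Eif2ak2 (chr17:78852564-78882573, minus strand) is PKR, the kinase that stops translation when it binds such RNA. It stood at 71.6, 71.4 and 71.1 CPM in B16F10 vehicle libraries, 167, 168 and 160.4 CPM with IFNγ and 227, 217 and 210.2 CPM with IFNβ. 6694c2 cells held 30.3, 36.4 and 33.2 CPM with vehicle, 102, 105 and 100.2 CPM with IFNγ and 292, 245 and 247 CPM with IFNβ. Each step was clear of the group before it in both lines. IFNβ raised Eif2ak2 3.07-fold and 8.03-fold (edgeR adjusted p = 2.42e-93 and 1.11e-30). STING agonist gave 88.6, 94.0 and 94.0 CPM in B16F10 cells, all above vehicle, a log2 fold change of 0.36 ± 0.060 (edgeR adjusted p = 4.38e-07). Eif2ak2 shares 174 exon bases with Gm26637 on the other strand, whose reads came to 527 over all libraries against 70801 for Eif2ak2.

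Adar (chr3:89715022-89753446, plus strand) edits adenosine to inosine in double-stranded RNA and is made from constitutive and interferon-inducible start sites, which gene counts cannot tell apart. Its means in B16F10 cells were 81.1 ± 2.29 CPM with vehicle, 162 ± 6.29 CPM with IFNγ and 224 ± 8.08 CPM with IFNβ (SD, n = 3). In 6694c2 cells they were 47.7 ± 5.56 CPM, 114 ± 5.97 CPM and 215 ± 8.04 CPM. Adar rose with both interferons in both lines, by log2 1.48 ± 0.058 with IFNβ in B16F10 and 2.20 ± 0.076 in 6694c2 cells (edgeR adjusted p = 2.51e-83 and 1.72e-26). With STING agonist B16F10 libraries held 85.2, 99.4 and 95.4 CPM against 83.4, 81.1 and 78.8 CPM with vehicle. This was the smallest change called, at log2 0.20 ± 0.059 (edgeR adjusted p = 0.0338). It was not called when any single vehicle library or STING agonist replicate 2 or 3 was left out, where the edgeR adjusted p ranged from 0.0739 to 0.381, nor when all 24 libraries entered the fit, at 0.13. Only the fit without STING agonist replicate 1 kept it among those that left out a library. Adar shares 1365 exon bases with Chrnb2 on the other strand, whose reads came to 1632 over all libraries against 70417 for Adar.

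Pnpt1 (chr11:29130744-29161828, plus strand) is the mitochondrial polynucleotide phosphorylase, which degrades mitochondrial RNA. Like Rsad2, it rose with IFNβ and was not called with IFNγ in 6694c2 cells. Libraries of that line held 51.5, 57.0 and 52.7 CPM with vehicle, 62.6, 61.4 and 56.9 CPM with IFNγ and 181, 169 and 190.4 CPM with IFNβ. The IFNγ range touched the vehicle range and its log2 change of 0.18 ± 0.073 was not called (edgeR adjusted p = 0.107), while IFNβ gave 1.78 ± 0.072 (edgeR adjusted p = 7.05e-24). In B16F10 cells the means were 77.9 ± 0.437 CPM with vehicle, 115 ± 5.56 CPM with IFNγ and 187 ± 18.1 CPM with IFNβ (SD, n = 3). Both interferons raised it there, by 1.47-fold and 2.41-fold (edgeR adjusted p = 4.99e-17 and 3.76e-66).

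**Figure D2:**
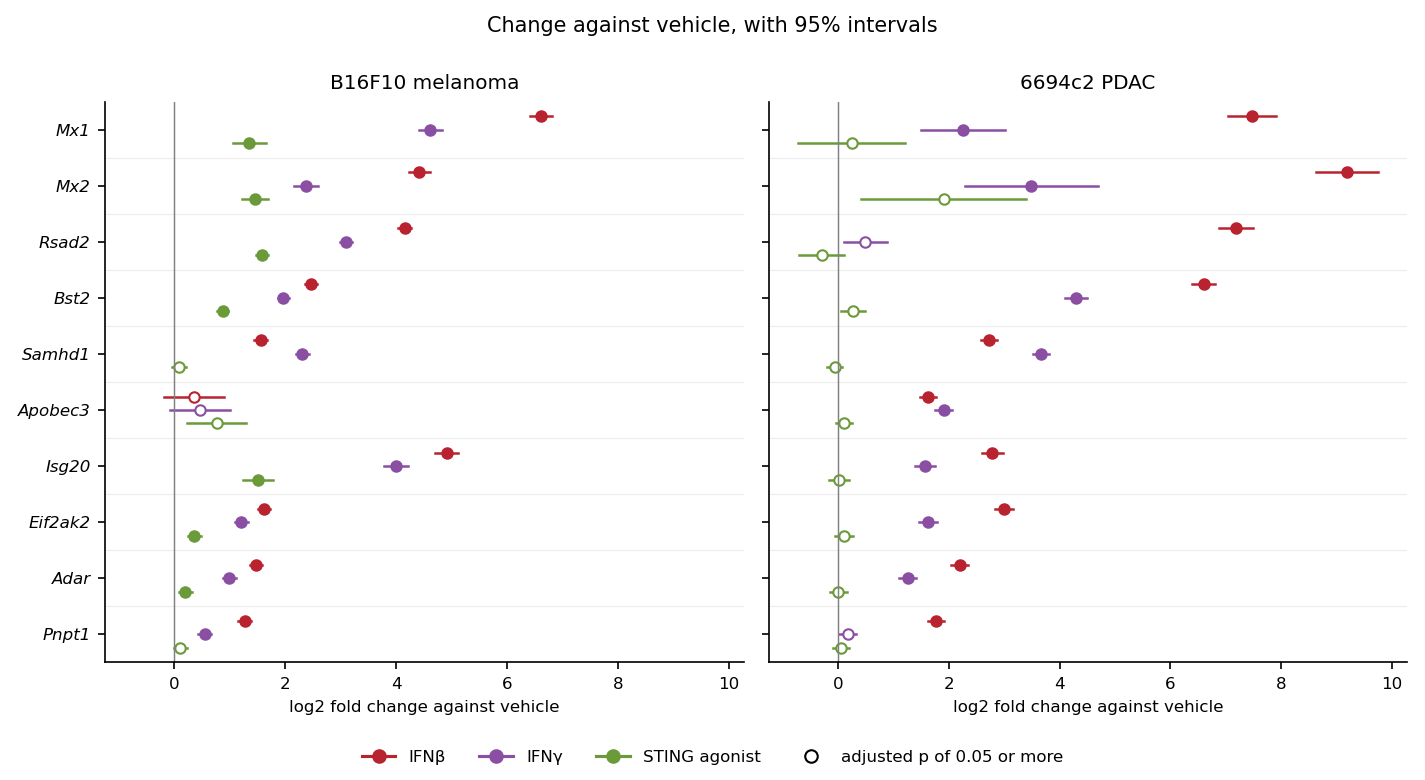
Log2 fold change against vehicle of each restriction factor (points) with its 95% interval (lines) for IFNβ, IFNγ and STING agonist, in B16F10 cells on the left and 6694c2 cells on the right, with open points for changes that were not called. In 6694c2 cells the STING agonist points are all open, from -0.29 for Rsad2 up to 1.91 for Mx2.

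STING agonist moved no member past the threshold in 6694c2 cells. Bst2 stood at 10.9, 9.69 and 11.5 CPM against 7.64, 9.88 and 8.96 CPM with vehicle, and the ranges touched. Its log2 fold change was 0.28 with a 95% interval of 0.060 to 0.50 (edgeR adjusted p = 0.458). For Samhd1, Apobec3, Isg20, Eif2ak2, Adar and Pnpt1 the intervals lay between -0.195 and 0.27 on the log2 scale, which bounds any change of these 6 genes below the smallest IFNγ or IFNβ change called for them in this line, 1.26 for Adar with IFNγ. For Mx1 and Mx2 the intervals ran from -0.72 to 1.22 and from 0.42 to 3.40, on 1, 8 and 16 Mx2 reads per library. The Mx2 interval lay above 0, and the change was not called after adjustment over all genes.

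Set directly against each other, IFNβ gave more transcript than IFNγ for most members in both lines. In B16F10 cells 8 of 10 were higher with IFNβ and 1 lower, where 14.5% of all genes tested differed in either direction. In 6694c2 cells 8 were higher and 2 lower, against 13.9% of all genes. Samhd1 was the exception in both lines, with a log2 fold change of IFNβ against IFNγ of -0.75 ± 0.055 in B16F10 and -0.94 ± 0.064 in 6694c2 cells (edgeR adjusted p = 5.1e-33 and 8.55e-16). Apobec3 was also lower with IFNβ in 6694c2 cells, by a small step of -0.28 ± 0.070 (edgeR adjusted p = 0.00295). The widest differences were those of Rsad2, Mx2 and Mx1 in 6694c2 cells, at 6.69, 5.68 and 5.22 on the log2 scale, against 1.06, 2.04 and 1.999 in B16F10 cells. For Pnpt1 the difference was 1.60 ± 0.071 in 6694c2 and 0.72 ± 0.058 in B16F10 cells. Adar and Eif2ak2 differed least in B16F10 cells among the 9 genes called there, together with Bst2, at 0.48, 0.41 and 0.50.

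**Figure D3:**
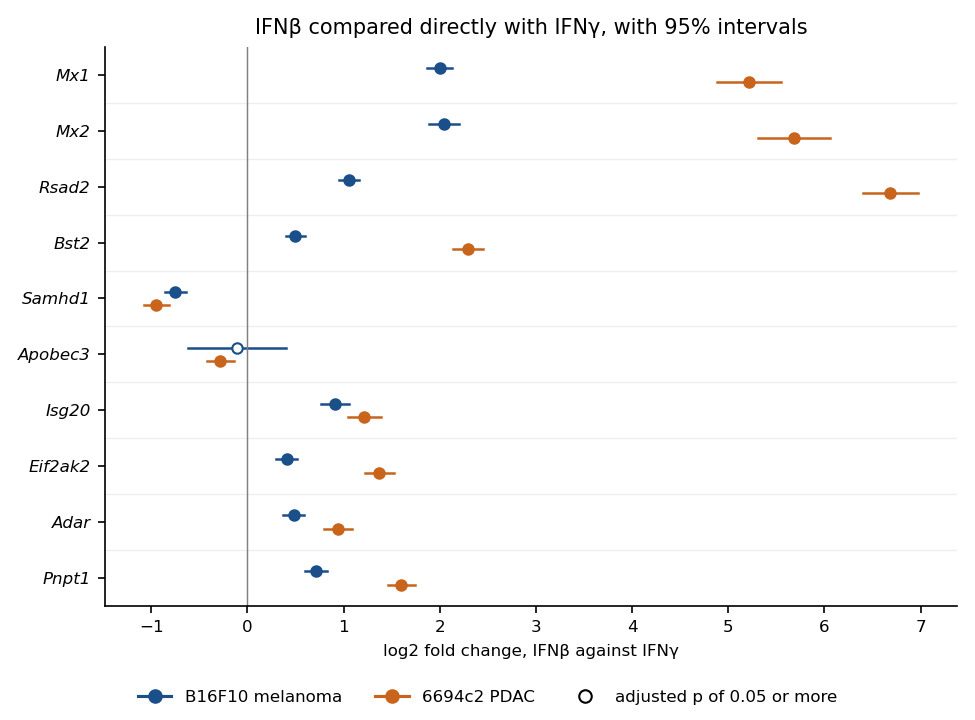
Log2 fold change of IFNβ against IFNγ for each restriction factor (points) with its 95% interval (lines), B16F10 in blue and 6694c2 in orange, with the open point not called. Samhd1 lies left of 0 in both lines, at -0.75 and -0.94, and Rsad2 lies farthest right in 6694c2 cells, at 6.69.

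The interferons also stood above STING agonist. With IFNβ, 9 of 10 members were higher than with STING agonist in B16F10 cells (all genes differing: 19.8%) and all 10 in 6694c2 cells (17.5%). With IFNγ, 9 of 10 were higher than with STING agonist in both lines (all genes differing: 20% in B16F10 and 12.8% in 6694c2). Apobec3 was the member not called in B16F10 cells and Pnpt1 the member not called for IFNγ in 6694c2 cells. The Rsad2 difference of IFNγ from STING agonist in 6694c2 cells, 0.78 ± 0.18 (edgeR adjusted p = 0.00171), was not called in a robust fit, at an edgeR adjusted p of 0.196. Among members raised by STING agonist in B16F10 cells, the log2 difference of IFNγ from STING agonist was 0.80 for Adar and 0.84 for Eif2ak2. It was 0.92 ± 0.095 for Mx2, 1.095 ± 0.052 for Bst2, 1.52 ± 0.052 for Rsad2, 2.49 ± 0.094 for Isg20 and 3.26 ± 0.095 for Mx1.

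Before treatment the lines differed in every member. Apobec3 and Isg20 were higher in 6694c2 vehicle libraries and the other 8 were lower, where 58% of all genes tested differed. Apobec3 was 40.0-fold and Isg20 16.1-fold higher in 6694c2 cells (log2 5.32 ± 0.11 and 4.01 ± 0.13, edgeR adjusted p = 1.19e-33 and 4.77e-27). Mx2, Rsad2 and Bst2 were lower there by the widest margins, with log2 differences of -5.63 ± 0.44, -4.77 ± 0.15 and -4.49 ± 0.10 (edgeR adjusted p = 9.57e-15, 3.51e-28 and 8.67e-34). Without 6694c2 vehicle replicate 3 the Mx2 difference was -6.92 and that of Mx1 moved from -2.48 to -3.49. The genes of the double-stranded RNA group differed less, from -1.10 for Eif2ak2 to -0.54 for Pnpt1, and Samhd1 stood at -0.41. Per kb of exon, the order in B16F10 vehicle libraries was Bst2 at 220.1, Rsad2 at 25.0 and Pnpt1 at 22.2, down to Mx1 at 0.533 and Apobec3 at 0.223 CPM per kb. In 6694c2 vehicle libraries it was Isg20 at 23.3, Pnpt1 at 15.3 and Bst2 at 9.78, down to Mx1 at 0.0982 and Mx2 at 0.0223 CPM per kb. Melanocyte markers in these libraries stood at 0.465% of their B16F10 level. At the levels in B16F10 groups, that share would bring 0.009 to 0.904 CPM of Mx1 and 0.0191 to 0.408 CPM of Mx2. For Rsad2 it would bring 0.503 to 8.92 CPM and for Bst2 0.924 to 5.07 CPM. The vehicle means were 0.358, 0.0804, 3.97 and 8.83 CPM. The part of such traces in these means, and in fold changes against them, was not tested.

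The effects themselves were then compared between the lines, by a test of the difference of the log2 fold changes over all 24 libraries. For IFNβ, 8 members had a larger log2 fold change in 6694c2 cells and Isg20 a smaller one, where 12.1% of all genes tested differed. Mx2, Bst2 and Rsad2 differed most, by 4.73 ± 0.51, 4.11 ± 0.12 and 3.001 ± 0.18 on the log2 scale (edgeR adjusted p = 3.87e-09, 9.68e-27 and 3.86e-16). They were also the members with the widest deficit in 6694c2 vehicle libraries, and those libraries enter both comparisons. In CPM, their rise with IFNβ was smaller in 6694c2 than in B16F10 cells. It was 47.0 against 83.6 CPM for Mx2, 828 against 893 CPM for Bst2 and 558 against 1811 CPM for Rsad2. For Samhd1, Apobec3, Eif2ak2, Adar and Pnpt1 the rise in CPM was larger in 6694c2 cells. Rises in CPM were not tested between the lines. Isg20, which began higher in 6694c2 cells, responded less there on the log2 scale, by -2.15 ± 0.17 (edgeR adjusted p = 5.01e-13). Its rise in CPM was larger there, at 248 against 77.9 CPM. Mx1 was not called at 0.83 ± 0.46 (edgeR adjusted p = 0.279), but without 6694c2 vehicle replicate 3 it was 1.84 with an edgeR adjusted p of 0.0469, and the Mx2 difference was then 6.03.

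For IFNγ the members split, with 4 responding more and 4 less in 6694c2 cells, against 9.47% of all genes differing. Bst2, Samhd1, Apobec3 and Eif2ak2 responded more, by 2.32, 1.34, 1.44 and 0.41 on the log2 scale. Rsad2, Isg20, Mx1 and Pnpt1 responded less, by -2.62, -2.44, -2.38 and -0.39. On the log2 scale, Rsad2 and Pnpt1 thus responded more to IFNβ and less to IFNγ in 6694c2 than in B16F10 cells. The Mx1 call (edgeR adjusted p = 0.00836) was not made without 6694c2 vehicle replicate 3, where the difference was -1.37 and the edgeR adjusted p 0.452. Adar was not called at 0.25 ± 0.10 (edgeR adjusted p = 0.0978), though it was called without B16F10 vehicle replicate 3, B16F10 IFNγ replicate 2 or 6694c2 vehicle replicate 1, at edgeR adjusted p-values of 0.0124 to 0.0417. For STING agonist, Rsad2, Isg20 and Bst2 responded less in 6694c2 cells, by -1.88 ± 0.23, -1.49 ± 0.19 and -0.60 ± 0.13 (edgeR adjusted p = 5.96e-07, 8.72e-07 and 0.00462), where 2.12% of all genes differed. The Bst2 call was not made without 6694c2 vehicle replicate 2, at an edgeR adjusted p of 0.0526. The other 7 members were not called, Mx1 and Mx2 among them with intervals of -2.38 to 0.15 and -1.18 to 2.06.

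**Figure D4:**
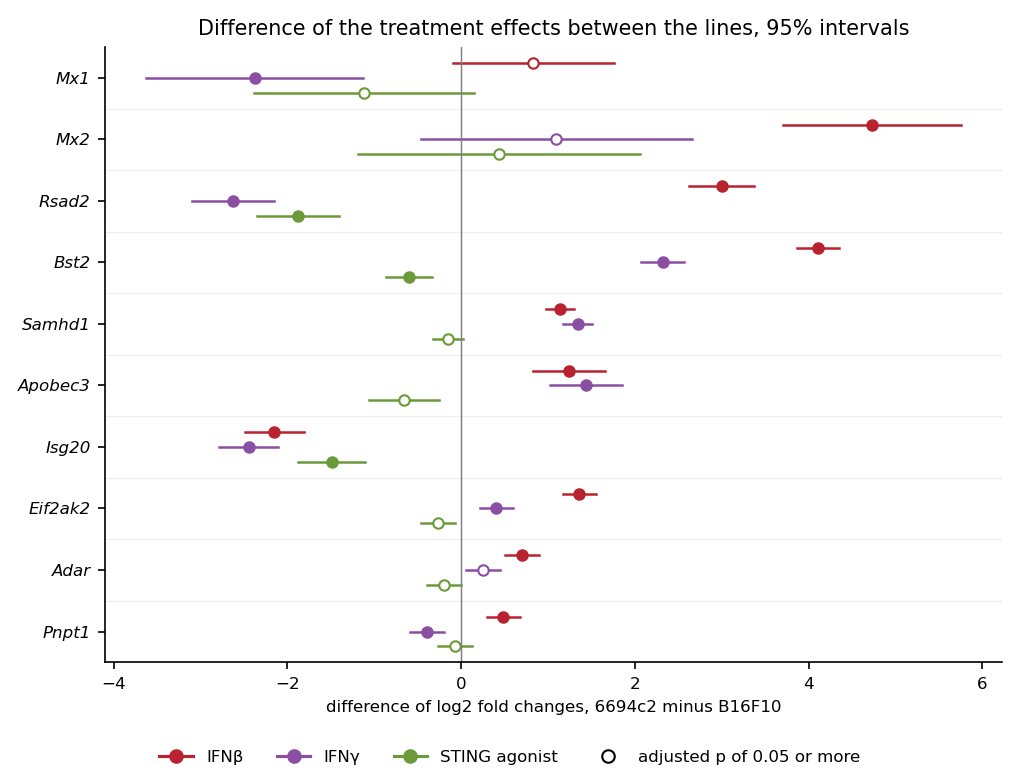
Difference of the log2 fold changes against vehicle between the lines, 6694c2 minus B16F10, for each restriction factor and treatment (points) with its 95% interval (lines), with open points not called. Rsad2 lies at 3.001 with IFNβ and at -2.62 with IFNγ, and Isg20 lies left of 0 with all 3 treatments.

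Other antiviral effectors moved with the group. Of 35 genes listed, 34 were counted and tested. Over all genes tested, 12.7% were called higher with IFNβ in B16F10 and 10.4% in 6694c2 cells. With IFNγ these shares were 12% and 7.89%, and with STING agonist 1.93% and 0.203%. Of the 34, 30 were higher with IFNβ in B16F10 and 27 in 6694c2 cells, with IFNγ 29 and 25, and with STING agonist 23 and 3. The 3 were Ifit1, Ifit3 and Oasl1, and Gbp2 was lower there, genes named after their values were seen. March8, a ubiquitin ligase that removes surface proteins, was the list member lower with IFNβ in 6694c2 cells, at log2 -0.38 (edgeR adjusted p = 5.57e-05). The largest IFNβ changes were those of Zbp1, a sensor of Z-form nucleic acid, and Oas3, an oligoadenylate synthetase, in B16F10 cells, at 6.55 and 6.38, and those of Ifit3, which binds viral RNA with its partners, and Ddx60, a helicase, in 6694c2 cells, at 9.14 and 8.84. The smallest were those of Plscr1, a phospholipid scramblase, at 0.13 and of Ch25h, an oxysterol enzyme with no reads in B16F10 vehicle or IFNβ libraries, in that line, and of March8 and Serinc5, at -0.086, in 6694c2 cells. Of 19 genes of interferon signalling, 14 were higher with IFNβ in B16F10 and 13 in 6694c2 cells, 14 and 13 with IFNγ, and 5 (Stat2, Irf9, Irf1 and Usp18 among them) and 1 with STING agonist. The signalling genes with the largest IFNβ changes were Stat2 and Usp18, a brake on the type I receptor, in B16F10 cells, at 4.16 and 4.12, and Irf7 and Usp18 in 6694c2 cells, at 10.01 and 8.32. Irf7, the factor that widens type I interferon production, was the signalling gene higher with STING agonist in 6694c2 cells, at 1.62 (edgeR adjusted p = 2.91e-06). Those with the smallest IFNβ values were Ifngr2 and Irf3 in B16F10 cells, at -0.25 and -0.18, and Ifngr2 and Ifnar1 in 6694c2 cells, at -0.10 and -0.069.

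Genes related to the members by family or reaction mostly stayed near vehicle. Of 26 such genes, 5 were higher and 5 lower with IFNβ in B16F10 cells and 4 higher and 2 lower in 6694c2 cells, and the medians were -0.065 and 0.042 on the log2 scale. These counts are not far from the shares over all genes tested. Those were 12.7% higher and 11.2% lower in B16F10 and 10.4% and 7.86% in 6694c2 cells. The changes named below are therefore those of single genes. With IFNγ 3 were higher and 4 lower in B16F10 (all genes: 12% and 10.8%) and 4 higher and 1 lower in 6694c2 cells (7.89% and 5.66%). With STING agonist 2 were higher in B16F10 cells (all genes: 1.93%) and 0 of 26 in 6694c2 cells (0.203%). Cmpk2, the neighbour of Rsad2 that makes nucleotide for mitochondria and is known to be induced with it, rose with IFNβ by log2 4.18 in B16F10 and 8.55 in 6694c2 cells. With IFNγ in 6694c2 cells Cmpk2 also rose, by 4.18 (edgeR adjusted p = 3.65e-27), from 1.43 to 25.6 CPM, where Rsad2 went from 3.97 to 5.85 CPM. Apobec1, the cytidine deaminase that edits Apob messenger RNA, rose in both lines with IFNβ, by 3.17 and 2.63, so in B16F10 cells it moved where Apobec3 did not pass the test. The other kinases of eIF2, Eif2ak1, Eif2ak3 and Eif2ak4, had IFNβ values of 0.17, -0.30 and -0.077 in B16F10 and -0.004, -0.19 and 0.16 in 6694c2 cells, beside 1.62 and 3.005 for Eif2ak2. The editing enzyme Adarb1 had values of -0.23 and -0.048, and the exonuclease Isg20l2 values of -0.094 and 0.077. Rrm1 and Rrm2, the subunits of ribonucleotide reductase that make the nucleotides Samhd1 degrades, fell with IFNβ in B16F10 cells to -0.43 and -0.49 on the log2 scale (edgeR adjusted p = 3.85e-14 and 9.46e-18), while in 6694c2 cells they stood at -0.17 and -0.025 and were not called. Ppp1r15a, which returns eIF2 to its active form, rose with IFNβ in both lines, by 0.39 and 0.52. Prkra, an activator of PKR, fell with IFNβ in 6694c2 cells to -0.53 (edgeR adjusted p = 7.63e-05). Adarb2, with the lowest fitted value in both lines, had means of 0.0554 and 0.113 CPM in vehicle libraries and no reads with IFNβ.

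For each member, the genes with the most similar pattern over the 6 comparisons with vehicle were found among 13343 genes with at least 1 CPM in some group, as the smallest root mean square difference of the log2 fold changes. These likenesses are descriptions, and the comparisons of a line share their vehicle libraries. Adar had the closest match, Mitd1 at 0.104, followed by Pnpt1 with Tdrd7 at 0.161 and Eif2ak2 with Gm6548 at 0.229. Apobec3 was closest to Bpifc at 0.274 and Samhd1 to Tmem229b at 0.289. Bst2 was closest to Ifitm3, another membrane restriction factor, at 0.364, and Rsad2 to Trim30d and Trim30a, at 0.45 and 0.546. The 6694c2 IFNγ values of these were 0.84 and 0.98, beside 0.50 for Rsad2. Mx2, Isg20 and Mx1 had the loosest matches, Ifit1 at 0.686, Sp110 at 0.704 and Sp100 at 0.883. The differences are not scaled by the size of the changes, and these members had the largest IFNβ changes of the group in B16F10 cells. For Mx1 and Mx2 the 6694c2 values also rest on few vehicle reads. Among the members themselves, Eif2ak2 and Adar were nearest to each other at 0.383, and Isg20 was farthest from any other member, at 1.82 from Eif2ak2.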

How the data were processed

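Bulk RNA from 24 mouse tumor cell libraries (8 groups of 3) was analysed, and the single-cell samples were not used here. Some alleles and genes of the series are not reported here. The authors trimmed adaptors with cutadapt, aligned with STAR, counted reads per gene with Rsubread and deposited raw counts without normalization. The submitters' processing notes name mm10 for the series. The annotation, the strand setting and the treatment of multi-mapping reads are not given in the sources used here. Of 49315 genes counted, 49056 are in GENCODE M21, with identical span and strand for 91.4%, and coordinates are therefore given on GRCm38. Those of Rsad2 differ from GENCODE M21 and are the files' own.

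Genes reaching a total of 10 reads over all 24 libraries were tested with edgeR 4.0.16 (limma 3.58.1, R 4.3.3). Each line was fitted on its 12 libraries with a mean per group and TMM normalization, and the vehicle comparison of the lines and the differences of effects were fitted over all 24. The quasi-likelihood test was used with Benjamini-Hochberg adjustment over all genes tested and a threshold of 0.05. Because this fit shares the spread over genes, its p-values go below what an exact test of a single gene can give with 3 libraries per group, which is 0.1. Their size also depends on which genes share it. For Mx1 with IFNβ in B16F10 cells the edgeR adjusted p was 1.37e-215, and 1.15e-24 with the low-count filter filterByExpr, at log2 6.62 in both fits. The lines were fitted apart, so the sizes of their p-values are not on a common scale. The standard error is the log2 fold change divided by the square root of F. The fit recovered known changes when tested on simulated data. That was a check of the procedure and gives no evidence for any single call above. Calls that rest on few reads or on small changes are not covered by it. No 2 libraries of a group agreed within sampling noise.

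The 10 genes and all lists were chosen with earlier results of these data known. All 10 are named whatever their values. From 3 further lists (other antiviral effectors, relatives of the members, interferon signalling), counts are given with the 2 largest and 2 smallest IFNβ changes per line and the relatives by name. Marker lists covered melanocyte, epithelial, leukocyte, B cell, T cell and fibroblast genes. Alternatives were DESeq2 1.42.0, RLE size factors, filterByExpr, no filter, a replicate block, a robust fit, other libraries in the fit, and each library left out in turn.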

Additional observations from a re-analysis of the deposited data

Results flagged for a closer look

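Treatment effects that differed between 6694c2 and B16F10 cells by a test of the difference itself are gathered here, as 6694c2 minus B16F10 on the log2 scale with edgeR's quasi-likelihood test and Benjamini-Hochberg adjustment. The IFNβ effect differed for 9 restriction factors. It was larger in 6694c2 cells for Mx2 (4.73), Bst2 (4.11), Rsad2 (3.001), Eif2ak2 (1.36), Apobec3 (1.24), Samhd1 (1.14), Adar (0.70) and Pnpt1 (0.48), and smaller for Isg20 (-2.15). The IFNγ effect differed for 8. It was larger in 6694c2 cells for Bst2 (2.32), Apobec3 (1.44), Samhd1 (1.34) and Eif2ak2 (0.41), and smaller for Rsad2 (-2.62), Isg20 (-2.44), Mx1 (-2.38) and Pnpt1 (-0.39). The STING agonist effect was smaller in 6694c2 cells for Rsad2 (-1.88), Isg20 (-1.49) and Bst2 (-0.60). Adjusted p-values from edgeR ran from 9.68e-27 for Bst2 with IFNβ to 0.00836 for Mx1 with IFNγ.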

How the results depend on the processing

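Each of 160 gene-by-comparison results was refitted under every alternative, and 146 kept their direction and their side of the threshold throughout. Of the 129 called, 125 stayed called. No count of members called moved by over 1.5 times. The calls that were lost or gained are given beside their results above, except that with DESeq2 the STING agonist effect on Apobec3 (-0.67, adjusted p = 0.0359) and the IFNγ effect on Adar (0.28, adjusted p = 0.0225) differed between the lines, that the robust edgeR fit lost the IFNγ difference of Mx1 (adjusted p = 0.0559), and that the Rsad2 change with IFNγ in 6694c2 cells was called by edgeR with no filter (adjusted p = 0.00364). Direction turned only in fits that left out 1 library, all for changes that were not called. Over those fits the log2 values ran from -0.27 to 0.032 for Apobec3 with IFNβ against IFNγ in B16F10 cells, from -0.093 to 1.26 for Mx1, -0.085 to 0.10 for Isg20 and -0.057 to 0.10 for Adar with STING agonist in 6694c2 cells, and from -0.40 to 1.73 for the difference between the lines in the STING agonist effect on Mx2. Pairing of the samples by replicate number was not seen. The correlation of deviations from the group means between libraries of the same number ran from -0.229 to 0.224. It was not over 0.1 for all 3 numbers in any comparison, which cannot show that the samples were unpaired. With the replicate number as a block, 159 of the 160 results kept their call, and the Rsad2 change with IFNγ in 6694c2 cells was called at a log2 value of 0.50 with an edgeR adjusted p of 0.0174. The 6694c2 vehicle levels of Mx1 and Mx2 rest on few reads, and their fold changes moved when vehicle replicate 3 was left out.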

Other observations

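With IFNβ the lines stood closer together than with vehicle for the double-stranded RNA group. Adar was at 217, 233 and 223 CPM in B16F10 and 222, 216 and 206 CPM in 6694c2 libraries, and the ranges overlapped, where the vehicle means had been 81.1 and 47.7 CPM. Pnpt1 was at 192, 167 and 202 CPM and 181, 169 and 190.4 CPM, again with overlap, from vehicle means of 77.9 and 53.7 CPM. Eif2ak2 passed over, from 71.3 and 33.3 CPM with vehicle to 218 and 261 CPM with IFNβ. Bst2, from outside this group, went from 199 and 8.83 CPM to 1091 and 837 CPM. Other members still stood apart with IFNβ. In B16F10 and 6694c2 cells the means were 1919 and 562 CPM for Rsad2, 194 and 61.8 CPM for Mx1 and 87.7 and 47.1 CPM for Mx2. They were 193 and 320 CPM for Samhd1, 80.5 and 292 CPM for Isg20 and 1.73 and 165 CPM for Apobec3. The levels with IFNβ were not tested between the lines.

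Vehicle replicate 3 of 6694c2 cells held the highest reading of Mx1, Mx2 and Rsad2 among the vehicle libraries of that line, with 3, 3 and 12 Mx1 reads, 1, 0 and 3 Mx2 reads and 64, 55 and 84 Rsad2 reads in replicates 1, 2 and 3. Its melanocyte markers stood at 0.468% of their B16F10 level, against 0.455% and 0.472% in the others.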
